A study of Mus musculus with 3 samples.

Results

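Cytosolic ribosomal protein genes encode the proteins of the large (Rpl, Rplp) and small (Rps, Rpsa) subunit of the ribosome that translates nuclear mRNAs. They were chosen here by symbol: Rpl or Rps with a number and at most one letter such as a, x or l, plus Rpsa and Rplp0 to Rplp2, without pseudogene symbols, and with at least 50 unique molecular identifiers (UMIs) over the series. Of 31053 genes in the matrices, 83 symbols matched and 80 reached the minimum, 48 of the large and 32 of the small subunit. The tissue-restricted paralogues Rpl10l (0 UMIs), Rpl3l (6 UMIs) and Rpl39l (12 UMIs) fell below it.

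The series holds 3 single-cell libraries from the small intestine of wild-type (WT) C57BL/6N mice: duodenum, jejunum and ileum, with 1 library each. Cells of 3 male mice aged 12 weeks were pooled before sorting, so that a library cannot be divided into animals and carries no replicate of its segment. Epithelial and intraepithelial immune cells were released with EDTA and DTT, live cells were sorted as negative for propidium iodide, and 3′ tags were counted with 10x Genomics v3 chemistry. The labels name no treatment, and the letters CD in the sample titles are not explained in the sources used here.

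After the study's own cell filters, 4255 duodenal, 4360 jejunal and 8071 ileal cells were kept, with a median of 12424, 11737 and 5536 UMIs per cell. Kept libraries shared 4 (duodenum and jejunum), 5 (duodenum and ileum) and 12 (jejunum and ileum) cell barcodes, at most 0.275% of the smaller library. The median cell held 27.1%, 27.2% and 11.1% mitochondrial UMIs, so the ileum stood apart. Clusters were given a cell class only from marker genes, with all ribosomal protein genes left out of the clustering. Each class is therefore a group of cells like the named type, and 4 clusters (8.13% of cells) kept no name. Enterocytes made up 10764 of 16686 cells, and the class of intestinal stem cells (ISC) and proliferating cells made up 221.

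As background, each ribosome carries 1 copy of nearly every one of these proteins, so their genes are transcribed at high and matched rates. Their mRNAs begin with a C followed by a run of pyrimidines at the very 5′ end, the terminal oligopyrimidine (TOP) motif, through which mTORC1 and the binding protein Larp1 adjust their translation, while Myc and RNA polymerases I and III set the supply of the other ribosome parts. In the intestine, cells divide in the crypt, and enterocytes then move up the villus, stop growing and are shed at the tip.

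The start regions show which sequence features members share, and which of the members that departed below have them. RefSeq promoter windows (GRCm38.p6) matched 60 of the 80 members. A run of C followed by at least 4 C or T, beginning within 10 bases of an annotated start, was found in 36 of these 60, against 34.4% of 27025 genes. The ETS-type motif CCGGAAG, searched on both strands from 250 bases before to 50 after the start, was found in 41.7% of members and 9.93% of genes, and TATAAA in 11.7% and 15.7%. A match describes letters in a window and shows no binding. The 30 bases around the start are given below for genes that led the class comparisons (Rpl12, Rps24), the gene that followed the other members most closely (Rpl27a), a paralogue pair (Rps27, Rps27l) and genes that departed from the rest (Rpl28, Rpl41, Rpl7l1), with capitals for each unbroken stretch of C and T, from its first C, that holds such a run, 15 bases before the annotated start and 15 from the start on. Rps24 and Rps27l each have an additional annotated start, whose window holds no run.
Rpl12, chr2:32961697-32961726, + strand: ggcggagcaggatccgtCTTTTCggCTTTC
Rps24, chr14:24490663-24490692, + strand: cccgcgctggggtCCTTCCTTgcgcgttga
Rpl27a, chr7:109519180-109519209, + strand: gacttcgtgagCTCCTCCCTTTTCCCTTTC
Rps27, chr3:90213634-90213663, - strand: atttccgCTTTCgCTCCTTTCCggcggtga
Rps27l, chr9:66946071-66946100, + strand: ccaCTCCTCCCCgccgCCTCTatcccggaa
Rpl28, chr7:4792950-4792979, + strand: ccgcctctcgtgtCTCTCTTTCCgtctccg
Rpl41, chr10:128549154-128549183, - strand: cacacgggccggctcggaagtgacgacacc
Rpl7l1, chr17:46782642-46782671, - strand: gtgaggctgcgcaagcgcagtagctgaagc
Rpl12 and Rps24 thus carry a run at or close to their starts, and Rpl28 carries 1 across its start, as Rps27 does. Rps27l, which also departed, carries 1 on each side of its start. No run stands in the printed windows of Rpl41 and Rpl7l1. Only RefSeq starts were searched. The printed Rpl41 window lies inside the gene as annotated by GENCODE M21, whose 5′ end is at chr10:128549305. A run at that end was not looked for. The 80 genes lie on 19 chromosomes, with at most 14 on 1 of them (chromosome 7).

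Levels are UMIs per 10000 non-mitochondrial UMIs of the summed cells. A 3′ tag counts 1 transcript whatever its length, so levels were not divided by length. Reads of genes with near-identical pseudogene copies may have been lost or split in the counting, which makes comparisons of level between members uncertain. Rpl13a, at 0.153, 0.132 and 0.209 in enterocytes of duodenum, jejunum and ileum, is a member to read in that way.

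Ribosomal protein mRNAs were most abundant in ISC/proliferating cells and B cells and least abundant in enterocytes, the most frequent cells of the series. Summed over the 80 genes, ISC/proliferating cells stood at 2522, 2469 and 2557 in duodenum, jejunum and ileum, and enterocytes at 145, 128 and 230.3. The ratio between them was 15.9 on average and ran from 11.1 to 19.2 over the 3 libraries. Early enterocytes, the cells of the villus bottom, lay between at 1016, 1014 and 1253.

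Among lymphocytes, B cells reached 2328, 2325 and 2703 and T cells 1722, 2144 and 2216. Macrophages and monocytes reached 1298, 1595 and 1799. Tuft cells, the chemosensory cells of the epithelium, were at 822, 656 and 698, and enteroendocrine cells (EEC) at 599, 578 and 802. IgA B cells, which secrete antibody, were at 586, 656 and 664. Mucus-secreting goblet cells were lowest after enterocytes, at 263, 249.9 and 437. By summed UMIs, in every library ISC/proliferating cells and B cells took the first places (B cells above ISC/proliferating cells in the ileum, below them elsewhere), and goblet cells and enterocytes the last. Tuft cells, EEC and IgA B cells changed places between libraries, so no order is read among them. Paneth cells had only 11 cells in the ileum, at 447, and under 10 elsewhere.

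**Figure D1:**
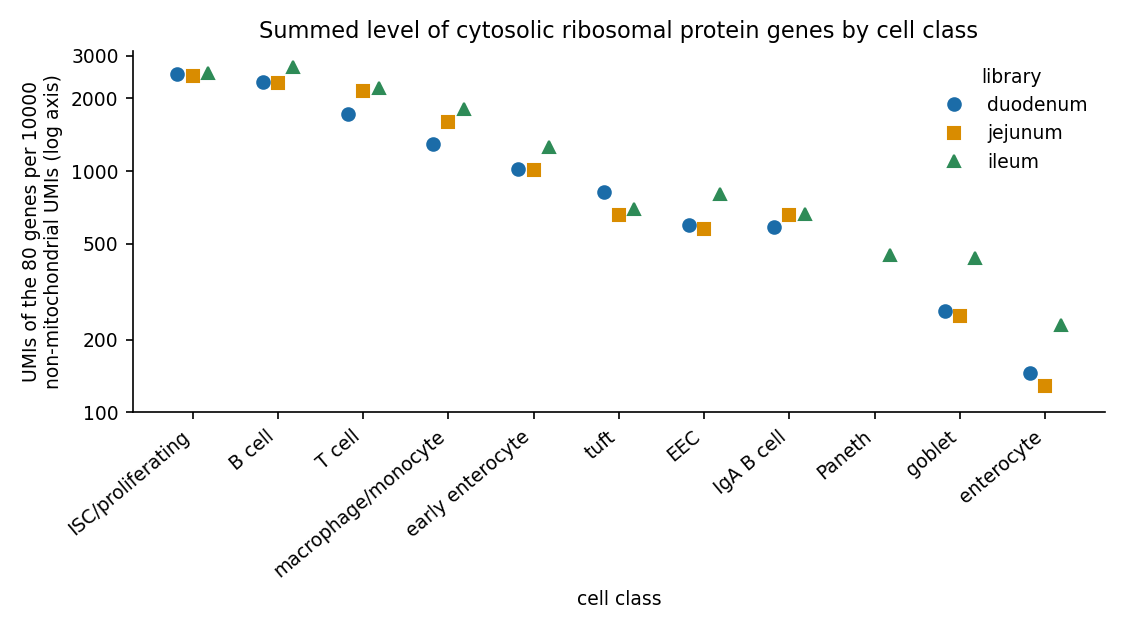
Summed UMIs of the 80 genes per 10000 non-mitochondrial UMIs (log axis) in each cell class, with 1 point for each library (circle duodenum, square jejunum, triangle ileum). ISC/proliferating cells and B cells sit at or above 2325 in all libraries, and enterocytes sit lowest, between 128 and 230.3.

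The gap between enterocytes and ISC/proliferating cells stood in single cells too. The median enterocyte held 100, 85 and 95 UMIs of these genes, among 8376, 8542 and 5502 non-mitochondrial UMIs. The median ISC/proliferating cell held 5033.5, 2400.5 and 2042, among 22073, 12705.5 and 13180. The median T cell, with fewer UMIs in all (3782, 4183 and 4025.5), held 694, 947 and 905. The order of the highest classes depended on the measure. By the level of the median cell, T cells stood at 1878, 2060 and 2234, ISC/proliferating cells at 2383, 2228 and 2162 and B cells at 1441, 2549 and 2807, so that T cells lay above B cells in the duodenum and above ISC/proliferating cells in the ileum. In several classes, goblet cells and EEC among them, the sum was carried by part of the cells. The median cell of macrophages and monocytes was at 822, 957 and 1706, against sums of 1298, 1595 and 1799. The goblet ratio to enterocytes was 1.89 from summed UMIs (1.81 to 1.95) and 1.24 from the median cell (0.967 to 1.48). The median EEC had a level of 548, 385 and 370, lowest in the ileum, where the sum was highest.

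Each class was tested against enterocytes gene by gene, on UMIs summed per library and class, with the quasi-likelihood test of edgeR and p-values adjusted by Benjamini-Hochberg over 13066 genes. With 3 segments of 1 pool of mice, p-values measure the spread between these libraries only. In ISC/proliferating cells all 80 members were higher (median log2 fold change 3.50) and 0 lower, against 31.8% and 29.6% of all genes tested and a median of -0.01. In early enterocytes all 80 were higher (median 2.59) and 0 lower, against 19.3% and 19.7% of genes. T cells had 79 higher members (median 3.14), against 32.0% of genes, and B cells 79 (median 3.38), against 26.7%. In both, Rps27l was the exception.

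Counts were lower in the other epithelial classes. Tuft cells had 77 higher members (median 1.78), against 23.0% of genes. EEC had 75 (median 1.64), against 28.5%, and goblet cells 74 (median 1.24), against 17.5%. None of the members was called lower in these 3 classes, a direction called for 22.6%, 24.6% and 19.7% of genes. Leaving out a library gave 70 to 78, 67 to 75 and 59 to 73 higher members. IgA B cells had 80 (median 3.12), against 20.8%.

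Immunoglobulin transcripts took 64.5%, 67.6% and 63.6% of the non-mitochondrial UMIs of IgA B cells, against 0.947% to 1.10% in B cells. Counted without immunoglobulin UMIs, the summed level of the members in IgA B cells was 1651, 2027 and 1822. The edgeR scaling by trimmed mean (TMM) also sets such dominant genes aside. Without it the median member difference in IgA B cells was 2.03 and that of all genes -1.36, and 76 members were called higher. Both scalings put the members above the median gene by over 3 on the log2 scale (3.58 and 3.39). Without TMM the median of all genes lay between -1.36 and 0.52 in the 8 comparisons, and the part of all calls that were higher ran from 21.2% to 71.4%, against 45.5% to 53.6% with it.

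Transcripts of enterocyte markers were counted in the other classes too. The enterocyte marker list stood at 936, 1606 and 1230 in enterocytes, 65.2, 66.9 and 44.8 in ISC/proliferating cells, 212, 142 and 137 in T cells and 97.1, 159 and 91.6 in goblet cells. Tuft cells had 153, 297 and 182, B cells 153, 305 and 158 and EEC 131, 178 and 120. IgA B cells had 91.5, 52.5 and 128, and early enterocytes 481, 703 and 177. Without the 10% of cells of each class with the largest part of enterocyte marker UMIs, 75 members were higher in goblet cells, 77 in tuft cells and 74 in EEC.

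Rpl3 and Rpl12 led most of the comparisons. Rpl3, a core protein next to the peptidyl transferase centre, had 0.261, 0.250 and 0.703 in enterocytes of duodenum, jejunum and ileum, and 27.0, 25.7 and 32.1 in ISC/proliferating cells. All ISC/proliferating values lay far above all enterocyte values. The log2 fold change was 5.66 ± 0.36 (SE, adjusted p = 5.4e-13), the highest of the 80, and Rpl3 also came first in early enterocytes (4.31), goblet cells (2.54), tuft cells (3.35), EEC (3.50), B cells (5.37) and IgA B cells (4.98).

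Rpl12, a protein of the base of the stalk that recruits translation factors, rose from 0.431, 0.370 and 0.721 in enterocytes to 29.0, 29.2 and 32.3 in ISC/proliferating cells (log2 5.38 ± 0.29). In T cells Rpl12 led the list, at 23.1, 28.4 and 35.2 (log2 5.30). Rps2, a small-subunit protein near the mRNA entry, came next in ISC/proliferating cells, with 49.4, 49.4 and 51.0 against 1.29, 0.818 and 1.502 (log2 4.83).

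Some members led in particular classes. Rps15a was among the highest 3 in T cells, at 46.2, 56.1 and 54.6 (log2 5.11), and in B cells (log2 4.84), above its level in ISC/proliferating cells (36.6, 34.0 and 36.3). Rps24 was among the highest 3 in IgA B cells, at 25.5, 27.2 and 22.2 (log2 4.85), and in tuft cells, at 21.5, 17.4 and 20.9 (log2 2.93). Rps21 reached 16.4, 10.3 and 10.6 in tuft cells (log2 3.03). After Rpl3 and Rpl12, Rpl9 came next in goblet cells (2.09) and Rps13 in EEC (2.44).

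**Figure D2:**
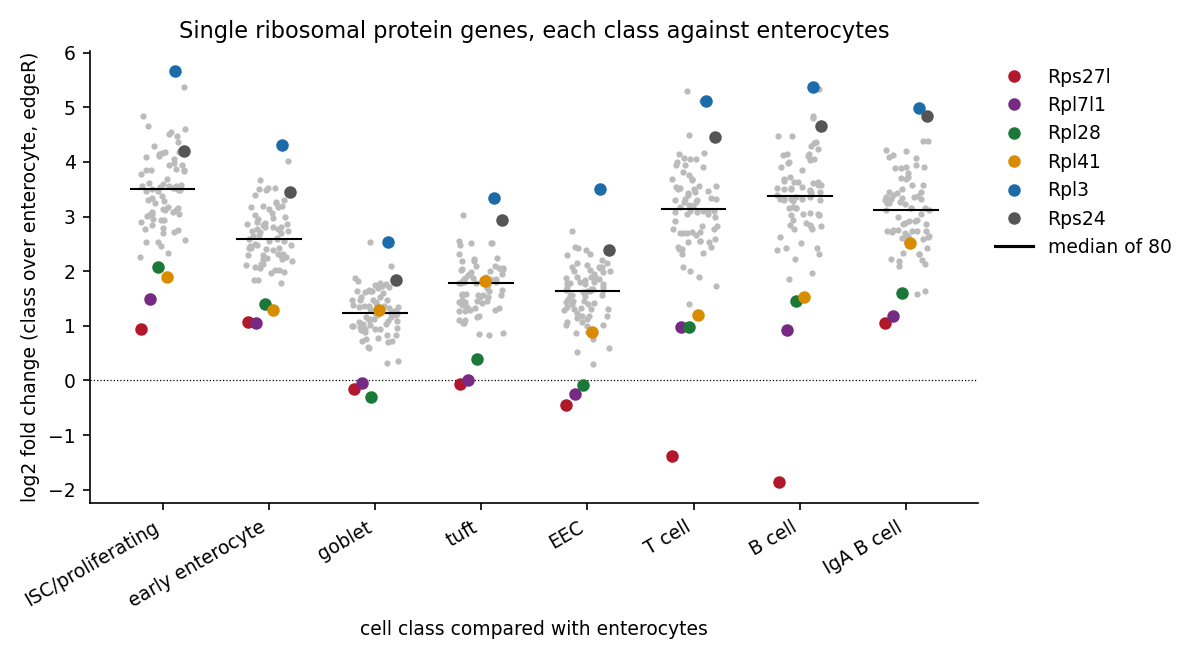
Log2 fold change of each of the 80 genes in 8 classes against enterocytes (edgeR, TMM scaling), with 1 point for each gene, the median as a bar and 6 genes in colour. Rpl3 (blue) is at or near the top of every class, and Rps27l (red) falls below 0 in T cells (-1.38) and B cells (-1.87).

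Rps27l did not follow the other members. It is a paralogue of Rps27, a small-subunit protein with a zinc finger, and is known as a gene that p53 induces. Rps27l stood at 2.95, 2.65 and 2.23 in enterocytes of duodenum, jejunum and ileum, and at 8.16, 8.04 and 6.11 in ISC/proliferating cells. These values do not overlap (log2 0.94 ± 0.31, adjusted p = 0.0099). The call was lost without the duodenum (log2 0.58), without the jejunum (0.88), in cells with at most 20% mitochondrial UMIs (0.54) and without the cells with most enterocyte marker UMIs (0.70). In early enterocytes Rps27l was at 6.73, 6.43 and 5.65 (log2 1.06, adjusted p = 0.0072, and 1.03 without a call when the jejunum was left out).

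In T cells Rps27l was at 1.56, 1.20 and 1.58, below every enterocyte library (log2 -1.38 ± 0.33, adjusted p = 0.000599), a direction called for 29.7% of genes. In B cells it was at 0.126, 1.04 and 1.28, where the first value is 1 UMI (log2 -1.87, adjusted p = 7.0e-05), against 27.6% of genes. Its level did not pass the test in goblet cells (log2 -0.16), tuft cells (-0.07) and EEC (-0.45). In IgA B cells it was called higher (1.06) with TMM, but its levels of 2.01, 2.83 and 2.70 overlapped those of enterocytes, and without TMM the value was -0.048. The calls in T and B cells passed under every alternative run, with values from -1.92 to -0.84 and from -2.72 to -1.38.

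Rps27 itself was at 3.31, 2.72 and 4.26 in enterocytes, 41.5, 42.4 and 44.4 in T cells and 47.0, 47.7 and 58.0 in B cells. For each 100 UMIs of Rps27 there were 89.2, 97.4 and 52.4 of Rps27l in enterocytes, 52.9, 49.7 and 37.0 in early enterocytes and 33.6, 32.1 and 26.4 in ISC/proliferating cells. The same count was 3.77, 2.83 and 3.57 in T cells. In B cells it was 0.269, 2.17 and 2.21. T and B cells thus lay apart from every epithelial class, whose lowest value was 17.5 (tuft cells of the ileum), and each epithelial class had its lowest value in the ileum.

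**Figure D3:**
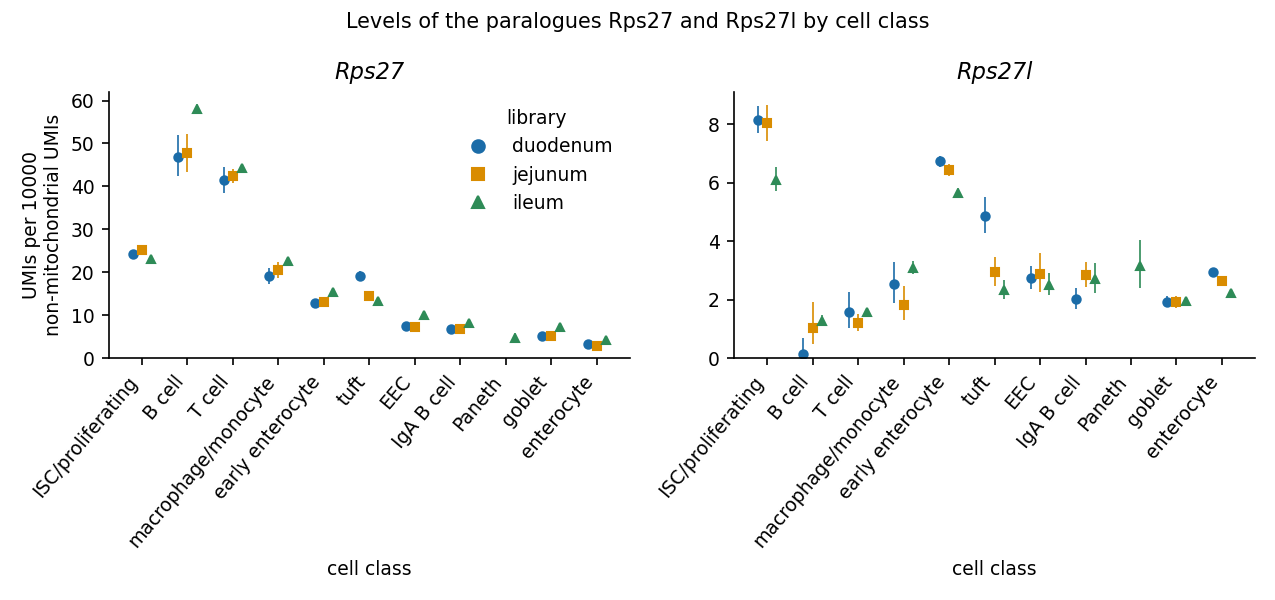
UMIs per 10000 non-mitochondrial UMIs of Rps27 (left) and Rps27l (right) in each cell class, with 1 point for each library and exact 95% Poisson bars that cover counting error only; the axes differ in scale. Rps27 is highest in B and T cells, where Rps27l is lowest.

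The other pairs moved less. Rpl22, which binds RNA outside the ribosome too, was at 18.7, 17.9 and 17.8 in ISC/proliferating cells, and its paralogue Rpl22l1 at 12.6, 11.8 and 10.1. In enterocytes they were at 0.834, 0.765 and 1.61, and 0.979, 0.930 and 1.12. Rpl22l1 per 100 Rpl22 UMIs was 117, 122 and 69.3 in enterocytes, 106, 137 and 111 in goblet cells and 22.7, 32.6 and 44.6 in IgA B cells. Rpl7l1, a low paralogue of Rpl7, ranged only from 0.0757 to 1.13 over all classes above. It was higher in ISC/proliferating cells (log2 1.48, adjusted p = 3.6e-06) and not called in goblet cells (-0.04), tuft cells (0.00) and EEC (-0.24).

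Rpl28 and Rpl41 were the most abundant members in enterocytes. Rpl41, the smallest ribosomal protein, gave 4.72% of all member UMIs there, and Rpl28, a large-subunit protein, gave 4.66%. Rps29 (2.67%), Rps20 (2.45%) and Rps14 (2.39%) followed. Rpl28 was at 4.15, 5.66 and 13.8 in enterocytes, and at 45.5, 47.4 and 47.5 in ISC/proliferating cells. In goblet cells it was at 4.07, 4.05 and 7.73, which overlaps the enterocyte range. It was not called in goblet cells (log2 -0.30, adjusted p = 0.46), tuft cells (0.39) and EEC (-0.09). Rpl41 was at 5.68, 7.07 and 10.9 in enterocytes and at 39.3, 38.0 and 36.2 in tuft cells, close to the 46.5, 43.8 and 40.7 of ISC/proliferating cells. Rpl7a was not called in goblet cells or EEC, and Rps26 not in goblet cells (log2 0.71, adjusted p = 0.054).

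To ask which members moved more or less than the family, each gene was also fitted relative to the summed member UMIs. On this scale a higher call is a larger part of all ribosomal protein mRNA. In ISC/proliferating cells 29 members took a larger and 19 a smaller part than in enterocytes, against 4.33% and 75.7% of all genes. T cells had 24 and 20 (7.81% and 74.9% of genes), B cells 21 and 19 (5.84% and 74.7%) and IgA B cells 21 and 21 (5.99% and 71.0%). EEC had 21 and 12 (12.8% and 54.8%), goblet cells 17 and 7 (6.27% and 55.6%) and tuft cells 14 and 13 (7.42% and 59.7%). Genes outside the family fall on this scale wherever the family rises, so the background differs between directions by construction.

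These counts were lower in every run that left out a library. Each such run also had fewer libraries in the fit, and the role of any single library was not tested. The number of members with a changed part fell to between 31 and 35 in ISC/proliferating cells, 8 and 16 in goblet cells, 13 and 22 in tuft cells, 15 and 23 in EEC, 25 and 37 in T cells, 28 and 35 in B cells and 27 and 30 in IgA B cells when 1 library was left out. The lowest number came without the jejunum in each of the 7 comparisons.

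In each of the 7 comparisons 9 members took a larger part: Rpl3, Rpl12, Rpl13, Rpl36a, Rps15a, Rps18, Rps21, Rps24 and the ubiquitin fusion gene Rps27a. Without the duodenum only Rpl3 and Rpl12 did so, without the jejunum only Rpl3, and without the ileum Rpl3, Rpl12, Rps21 and Rps24. The members with a smaller part in all 7 were Rps27l, Rpl7l1, Rpl28 and Rpl7a, and these 4 also had a smaller part in all 7 without any 1 of the libraries. Only Rpl10, whose protein joins late and allows the subunits to pair, was called in both directions (larger in 1 comparison, smaller in 4), and 18 members were never called. All comparisons share the enterocyte libraries, so they are not independent of each other. On this scale Rpl3 had 2.33 in ISC/proliferating cells and 2.07 in EEC, Rps15a 2.05 in T cells and Rps24 1.83 in IgA B cells. At the other end, Rps27l had -5.33 in B cells and -4.50 in T cells, and Rpl28 -2.01 in T cells.

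Large-subunit genes gave 53.4% to 60.9% of all member UMIs. The part was 59.0%, 60.02% and 59.1% in enterocytes, 55.6%, 55.7% and 55.5% in ISC/proliferating cells and 54.1%, 54.3% and 54.1% in T cells. Both subunits moved in 1 direction: the median log2 fold change in ISC/proliferating cells was 3.36 for large-subunit and 3.55 for small-subunit genes. Members with a pyrimidine run found at a RefSeq start and those without also stood close. In ISC/proliferating cells the median was 3.68 over the 36 with a run, among them Rps27l, and 3.33 over the 24 without. In T cells it was 3.31 and 3.06. A RefSeq start can lie away from the 5′ end of the mRNA, so this split does not sort mRNAs by the TOP motif. From zone 1 to zone 5 the medians were -2.69 and -2.37. These differences were not tested.

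Along the villus, enterocytes and early enterocytes were placed in 5 zones with equal numbers of cells in each library, by landmark genes of the tip (such as Ada and Apoa4) and bottom (such as Reg3b and Lypd8), none of them a member. Genes of the bottom list are also markers of early enterocytes. Between 609 and 880 cells of a library lay within 0.02 of a border on the 0 to 1 scale of the score. Summed member levels fell in every step from bottom to tip. They were 693, 623 and 1024 in zone 1 of duodenum, jejunum and ileum, 189.8, 151 and 340.1 in zone 2 and 140.4, 111 and 222 in zone 3. In zone 4 they were 126, 94.6 and 168, and in zone 5 99.9, 77.9 and 133. The ileum was highest and the jejunum lowest in each zone. In zone 1 the median cell was at 305, 240 and 590, well below these sums, and in zone 5 it was at 93.3, 73.6 and 126.

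All 80 members were lower in zone 5 than in zone 1 (median log2 -2.54, the quasi-likelihood test of edgeR, adjusted by Benjamini-Hochberg over 11053 genes), against 37.8% of genes. None was higher, against 33.1%. From zone 1 to zone 3 all 80 were also lower (median -2.32), against 25.2%. The median of all genes was -0.11 and 0.01 in these comparisons. Without TMM it was -0.64 from zone 1 to zone 5, the members had a median of -3.07, and 27.4% of all calls were higher, against 46.7% with TMM.

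Much of the first step coincided with a change of cell class. Early enterocytes made up 45.3%, 34.1% and 42.4% of zone 1, 4.01%, 0.559% and 1.63% of zone 2, and at most 0.830% of a higher zone. In enterocytes alone, with zones set again, 77 members were lower and 2 higher in zone 5 than in zone 1, with a median of -0.94, against 35.0% lower and 30.6% higher and a median of -0.10 over the 10763 genes tested. Their summed level went from 189, 204 and 405 in zone 1 to 99.5, 78.1 and 133 in zone 5, still lower in each zone than in the one below it.

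Mitochondrial UMIs also changed along the zones. Zones 1 and 5 were compared within bins of 10 percentage points of mitochondrial UMIs, each with at least 20 cells. Zone 1 lay above zone 5 in all 10 bins of the 3 libraries. The ratio of their levels depended on the bin and fell with each higher bin in every library. It was 7.45, 4.88 and 4.21 in the duodenum and 10.7, 7.12, 5.86 and 3.84 in the ileum. The lowest ratio, 3.60, was that of the jejunum from 30% to 40%. Zone 1 includes early enterocytes here, and enterocytes alone were not tested in bins.

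**Figure D4:**
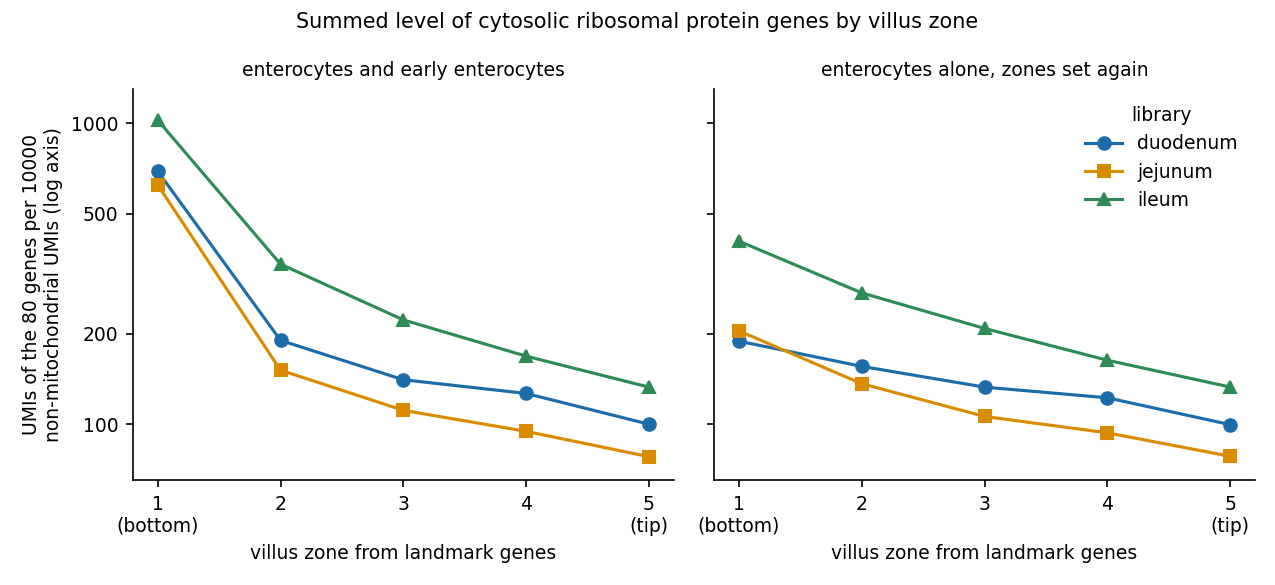
Summed UMIs of the 80 genes per 10000 non-mitochondrial UMIs (log axis) in 5 villus zones of each library, for enterocytes with early enterocytes (left) and for enterocytes alone (right). Levels fall from zone 1 to zone 5 in all 3 libraries, more steeply on the left (693 to 99.9 in the duodenum) than on the right (189 to 99.5).

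The upper villus showed a smaller change. Between zone 3 and zone 5, 24 members were lower and 1 higher (median -0.25), against 19.5% and 18.7% of genes and a median of -0.08. Without 1 library the lower count was 10 (duodenum), 3 (jejunum) and 5 (ileum), without the block on library it was 0, and without TMM it was 75, when 15.5% of all calls were higher, against 49.0% with it. The median member lay 0.18 below the median gene under TMM and 0.19 below it without TMM. Without TMM, the scale of the summed levels above, the medians were -0.69 for members and -0.51 for all genes. Rpl36a (-0.77), Rps18 (-0.72) and Rpl14 (-0.71) fell most among the members called.

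Rpl3 and Rps2, which were among the highest in ISC/proliferating cells, were also among the members that fell most along the villus. Rpl3 was at 4.85, 4.38 and 8.32 in zone 1 and at 0.154, 0.111 and 0.358 in zone 5 (log2 -4.44 ± 0.23, adjusted p = 2.6e-08). Rpl36a, a large-subunit gene of the X chromosome, fell from 3.92, 3.46 and 5.52 to 0.2003, 0.111 and 0.246 (log2 -4.06), and Rps2 fell by 3.92 on the log2 scale. Rps24 was at 13.3, 13.0 and 24.8 in zone 1 and at 0.698, 0.509 and 1.31 in zone 5.

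Rpl41 and Rpl28 kept their levels above the first zone. Rpl41 was at 15.3, 15.3 and 21.1 in zone 1, at 4.95, 6.998 and 10.8 in zone 3 and at 7.16, 6.46 and 9.85 in zone 5 (log2 -0.63 from zone 1 to zone 5, adjusted p = 0.0067, and without a call when the jejunum or the block was left out). It was the 1 member called higher in zone 5 than in zone 3 (0.52, adjusted p = 0.035), although without TMM its level rose in the duodenum and fell in the jejunum and ileum (log2 0.10, no call). Rpl28 was at 14.6, 14.4 and 22.9 in zone 1, 3.78, 5.49 and 13.6 in zone 3 and 4.74, 5.95 and 13.4 in zone 5 (log2 -0.75 from zone 1 to zone 5, adjusted p = 0.018, and without a call when the duodenum, the jejunum or the block was left out). In enterocytes alone, Rpl28 (log2 0.52 ± 0.12, adjusted p = 0.0024) and Rpl41 (0.49 ± 0.12, adjusted p = 0.0031) were the 2 members called higher in zone 5 than in zone 1. Both values are on the TMM scale, and this comparison was not run without TMM. In the zones that include early enterocytes, TMM moved the median of all genes from -0.64 to -0.11. Whether the 2 levels rise without TMM was not tested.

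Rps27l fell from 5.63, 5.19 and 4.90 in zone 1 to 2.11, 1.63 and 1.503 in zone 5 (log2 -1.06). Rpl7l1 fell from 0.508, 0.437 and 0.536 to 0.282, 0.165 and 0.112 (log2 -0.95, and -0.33 without a call in enterocytes alone). With Rpl41 and Rpl28, these 4 genes had the smallest differences between zones 1 and 5.

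**Figure D5:**
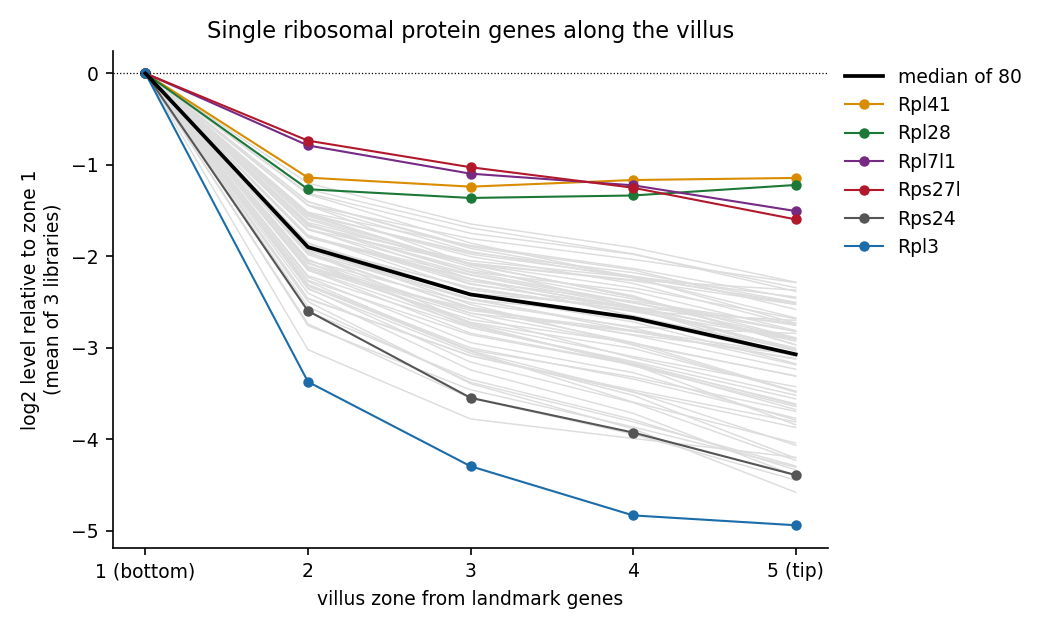
Log2 level of each of the 80 genes relative to zone 1, as the mean of 3 libraries without TMM scaling, in 5 villus zones of enterocytes and early enterocytes. The median (black) reaches -3.07 in zone 5, Rpl3 (blue) -4.94, and Rpl41 (orange) and Rpl28 (green) level off after zone 2 near -1.2.

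Segments have 1 library each and were not tested. The share of all genes lower in a segment was not computed, so the counts of members below have no background beside them. Enterocytes of the ileum had 1.59 times the summed level of those of the duodenum, and 75 of 80 members were lower in the duodenum. Mitochondrial UMIs made up 27.4%, 26.9% and 13.9% of the UMIs of duodenal, jejunal and ileal enterocytes, and among cells with at most 20% of them the ratio was 1.30. ISC/proliferating cells hardly differed (log2 of duodenum over ileum -0.02), with 46 members lower in the duodenum. In tuft cells the duodenum was higher (log2 0.23), with 11 members lower. Goblet cells had 79 members lower in the duodenum and 80 lower in the jejunum than in the ileum. The level of the median goblet cell differed less, at 159, 152 and 176 in duodenum, jejunum and ileum. T cells had 80 lower in the duodenum (median log2 -0.38), where the class held 41 cells and the highest enterocyte marker level of the 3 libraries, and 52 lower in the jejunum (median -0.05); the part of those markers was not tested.

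Some members differed more between segments than the sum. In enterocytes Rpl28 had the lowest ratio of duodenum to ileum (log2 -1.73), followed by Rps4x (0.771, 0.697 and 2.28 in duodenum, jejunum and ileum, log2 -1.56) and the stalk protein gene Rplp0 (1.16, 1.21 and 3.34, log2 -1.53). Rpl7l1 (log2 0.59), Rps27l (0.40) and Rpl38 (0.15) were higher in the duodenum.

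Over the 31 sums of a class in a library, most members followed the rest of the family. Pearson's r of a member's log2 level with the sum of the other members was -0.06 for Rps27l, 0.789 for Rpl7l1, 0.829 for Rpl41 and 0.899 for Rpl31, and reached 0.998 for Rpl27a. These sums share libraries, pooled mice and sequencing depth, and r is given as a description. Of 1344 other nuclear genes with a mean level of at least 1, the likeness to the summed members was greatest for Rack1 (r = 0.987), a small-subunit protein outside the symbol rule, and for the elongation factor gene Eef1a1 (0.983). Eif3f (0.973), Eef1b2 (0.968), Eef1d (0.959), Eif3m (0.948), Snu13 (0.947), Eif3i (0.947) and Hnrnpa1 (0.940) followed, and most of these genes encode translation factors or proteins of the ribosome.

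Other genes of ribosome production moved with the members in ISC/proliferating cells. Of 36 nucleolar assembly genes tested, 36 were higher in ISC/proliferating cells than in enterocytes (median log2 4.01), against 31.8% of all genes, led by Gar1 (6.69), a protein of the particles that modify rRNA, and Rrp1b (6.46). Of 15 translation factor and other TOP genes tested, 15 were higher (median 2.17), from Tpt1 (0.69) to Eef1b2 (4.10). Of 15 genes of RNA polymerases I and III, 11 were higher and 0 lower (29.6% of all genes), led by Polr1e (4.88), and Ubtf (0.17) was not called.

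Of 77 mitochondrial ribosomal protein genes, 68 were higher and 1 lower, Mrpl27 (-0.42). Ribosomal proteins outside the symbol rule had 3 higher of 4, and Fau, a ubiquitin-like fusion gene, was at 0.39 without a call. The list of Myc and mTORC1 genes was mixed, with 5 higher and 3 lower of 14 (median -0.08), close to the 31.8% and 29.6% of all genes. Myc had 7.15 and Larp1 1.43, whereas Max, the partner of Myc, had -3.17 and the S6 kinase gene Rps6kb2 -1.19.

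The nucleolar list also had 34 higher of 36 in T cells and in B cells, 31 in IgA B cells, 29 in EEC and 27 in tuft cells, and 0 lower in each, beside the shares of all genes called higher given above (20.8% to 32.0%). In goblet cells fewer genes of these lists were called. The nucleolar list had 16 higher and 0 lower of 36 (median 0.85), against 17.5% and 19.7% of all genes. The TOP list had 4 higher and 2 lower of 15 (median 0.30), beside the same shares. Mitochondrial ribosomal proteins, with 8 higher and 10 lower of 77 (median 0.00), were below these shares in both directions. Along the villus the lists fell with the members, except that of Myc and mTORC1 genes. From zone 1 to zone 5 the nucleolar list had 32 lower of 34 tested (median -2.23), the TOP list 15 of 15 (median -1.57) and mitochondrial ribosomal proteins 72 of 77 (median -2.05), against 37.8% of all genes. The genes of RNA polymerases I and III had 10 lower and 1 higher of 14 tested (median -1.54). Between zone 3 and zone 5 mitochondrial ribosomal proteins had 55 lower and 1 higher of 77 (median -0.78), against 19.5% and 18.7% of all genes. The nucleolar list had 15 lower and 1 higher of 34 there (median -0.78), and the TOP list 5 lower and 0 higher of 15 (median -0.11). From zone 1 to zone 5 the Myc and mTORC1 list was mixed, with 3 higher and 5 lower of 13 tested (median -0.05). The shares of all genes were 33.1% and 37.8%. Max (2.68) and the translation repressor gene Eif4ebp1 (2.70) were higher in zone 5 than in zone 1, and Larp1 (-2.17) was lower.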

How the data were processed

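Single-cell RNA was measured in 1 library each of duodenum, jejunum and ileum. The authors aligned reads to mm10 (GRCm38) and used Cell Ranger 3.0.2 to count unique molecular identifiers. Raw UMI counts per gene and barcode were deposited, without normalization. Cell Ranger counts only reads with a unique place in the annotation, so that members with near-identical copies may be undercounted. The annotation release is not given in the sources used here.

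The filters of the study were applied to the deposited counts (800 to 50000 UMIs, 200 to 6000 genes, at most 40% mitochondrial UMIs). Libraries were integrated and clustered in Seurat 5.3.0 (R 4.3.3) with 1920 of 2000 variable genes, after the members and Vil1 were left out, 30 principal components and a resolution of 0.8, which gave 24 clusters. A cluster took the class whose marker list was highest, with at least 3 markers found in 10% of its cells. It stayed unnamed where its 10 leading genes held more markers of another list or, except for enterocytes, none of its own. Scrublet (scanpy 1.11.5) marked 0, 0 and 146 cells of the 3 libraries, so that it did not work in duodenum and jejunum. Cells of the 5 villus zones were ranked by tip against bottom landmark genes. Levels are UMIs per 10000 non-mitochondrial UMIs, and their exact Poisson intervals (95%) hold only the counting error. They were computed in Python 3.11.15 (numpy 2.4.6, pandas 2.3.3, scipy 1.17.1).

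UMIs were summed per library and class or zone (at least 10 cells) and tested over all genes with edgeR 4.0.16, after its filterByExpr step and TMM scaling, by its quasi-likelihood test with a block for the library and a Benjamini-Hochberg threshold of 0.05. DESeq2 1.42.0 served as an alternative. The parts of the family used the same fit with the summed member UMIs as library size. Zones within enterocytes alone were set again on those cells. Other alternatives were no normalization, no gene filter, no block, each library left out, at most 20% mitochondrial UMIs, doublets removed, only the classes compared, no integration, cells richest in enterocyte markers removed, 30 cells in a sum and 3 zones.

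Named members are those of paralogue pairs, the 5 with most UMIs in enterocytes, the 3 highest and 3 lowest called members of a comparison, the 3 highest and 3 lowest ratios of duodenum to ileum, and the 10 genes most like the summed level, of which 9 are given. Some items are not reported here. Rpl10, Rpl7a, Rps26, Rpl27a, the members of the lists with a larger or smaller part in every comparison, and Fau were named after their values were seen. The members and all lists were chosen with earlier results of these data known.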

Additional observations from a re-analysis of the deposited data

Results flagged for a closer look

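Tuft cells went against enterocytes in the order of the segments: the log2 ratio of duodenum to ileum of the summed members was 0.23 in tuft cells and -0.67 in enterocytes. Each segment has 1 library and the duodenum held 45 tuft cells, and the difference was not tested.

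The clusters that kept no name were outside all comparisons, and their summed levels of the 80 genes lay within the range of the named classes. Cluster 20, with 89 cells led by Ms4a1, had 2378. Cluster 22, with 26 cells led by Siglech and Ly6d, had 2044. Cluster 7, with 863 cells led by Gm26917, Fgf15 and Fabp6, had 665, and cluster 12, with 379 cells among whose leading genes were Bcl2, Ikzf2 and Ptprc, had 508.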

How the results depend on the processing

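Under every alternative run, 79 or 80 members were called higher in ISC/proliferating cells and early enterocytes, 78 or 79 in T and B cells, 76 to 80 in IgA B cells, 70 to 78 in tuft cells, 67 to 77 in EEC and 59 to 77 in goblet cells. Of 282 alternative values for the counts and summed levels, 240 stayed within the limits set and 42 moved. Of 2699 for single members, 2556 kept their side of the threshold, 104 lost a call, 14 gained one and 25 changed sign. The cause was not tested. Libraries carry no replicate number, and the block is the library.

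Counts of members with a changed part of the family moved too. Without a filter on low genes they were 31 in ISC/proliferating cells, 10 in goblet cells, 15 in tuft cells, 17 in EEC and 29 in T cells. With DESeq2 they were 48 in goblet cells, 50 in tuft cells and 53 in EEC. With only the classes compared they were 28 in ISC/proliferating cells, 11 in tuft cells, 20 in T cells and 15 in IgA B cells. Leaving out a library gave 31 to 35, 8 to 16, 13 to 22, 15 to 23, 25 to 37, 28 to 35 and 27 to 30 for ISC/proliferating cells, goblet cells, tuft cells, EEC, T cells, B cells and IgA B cells. Members with a larger part in all 7 comparisons numbered 9 in the reported setting, 16 with DESeq2, 3 without a gene filter, 4 with only the classes compared, 6 without the block and 1 to 4 without a library. From zone 3 to zone 5 the lower count was 75 without normalization, 0 without the replicate block (1 at an unadjusted p under 0.05, and 22 with DESeq2 and the block) and 3 to 10 without a library.

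Ratios of summed levels to enterocytes per UMIs of other genes were 20.9 for ISC/proliferating cells and 19.9 for B cells. The goblet ratio was 2.27 per all UMIs, 1.73 with at most 20% mitochondrial UMIs and 1.24 over median cells, and the EEC ratio 4.82 per all UMIs and 3.40 over median cells. The enterocyte ratio of ileum to duodenum was 1.88 per all UMIs, 1.60 per other UMIs, 1.30 with at most 20% mitochondrial UMIs, 1.30 without integration, 1.57 without doublets and 1.46 over median cells. The summed level in tuft cells, ileum over duodenum, was 0.850 in the reported setting, 0.779 per all UMIs, 0.816 with at most 20% mitochondrial UMIs and 0.819 over median cells.

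Sign changes were almost confined to members without a call. In goblet cells they were Rps27l with DESeq2 (0.0015) and Rpl7l1 with DESeq2 (0.15), with only the classes compared (0.00698), without cells rich in enterocyte markers (0.021) and without the jejunum (0.077, the highest value without a library, the lowest being -0.12). In tuft cells they were Rps27l without normalization (0.36), with DESeq2 (0.16) and without the ileum (0.18, the lowest without a library being -0.54), and Rpl7l1 without a gene filter (-0.16), without the duodenum (-0.52, the highest without a library being 0.23), with at most 20% mitochondrial UMIs (-0.12), with only the classes compared (-0.055), without integration (-0.00775), without cells rich in enterocyte markers (-0.14) and with 30 cells in a sum (-0.0849). In EEC they were Rps27l (0.051) and Rpl7l1 (0.26) without normalization and Rpl7l1 with DESeq2 (0.12). Called members that changed sign were Rps27l in IgA B cells without normalization (-0.048), and Rpl28 (0.52) and Rpl41 (0.49) from zone 1 to zone 5 in enterocytes alone. From zone 3 to zone 5 they were Rpl10 without the ileum (0.073, the lowest without a library being -0.28) and Rpl7l1 without normalization (-0.37), without the duodenum (-0.27, the highest without a library being 0.25) and with at most 20% mitochondrial UMIs (-0.42), neither of them called. Without integration no goblet class was found.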
